A study of Mus musculus with 12 samples.

Results

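A set of 9 genes of central myelin and of the mature oligodendrocyte was followed across the 12 cortex libraries of the series: Mbp, Mobp, Mog, Mag, Cnp, Mal, Opalin, Ermn and Cldn11. They were chosen by name, with earlier results of these data known, and each of the 9 had exactly 1 row in both deposited tables, which list 48526 genes. The libraries came from 12 untreated mice on a C57Bl/6 background, 3 in each of 4 groups: non-transgenic controls at 3 months, TAU58/2 transgenics at 3 months, non-transgenic controls at 10 months and TAU58/2 transgenics at 10 months. The TAU58/2 transgene drives P301S mutant human tau from a neuronal Thy1 promoter, so it is directed to neurons and not to oligodendrocytes. The design text calls the samples biological replicates, and no other allele or agent is named for any group. Values are FPKM, fragments per transcript length and library size, so levels of different genes can be set side by side per length.

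Oligodendrocytes wrap axons of the brain in myelin, a stack of compacted membrane that speeds conduction and supports the axon. Mbp and other small proteins hold the compacted layers together, Mag and Mog sit on the inner and outer surfaces, and Cnp keeps cytoplasmic channels open through the sheath. In cortex, myelin is densest in the deep layers and at the border with white matter. In bulk tissue, fewer oligodendrocytes and less RNA per oligodendrocyte cannot be told apart.

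Several of the genes are known to depend on SOX10, the SOX family factor of the oligodendrocyte lineage, and the region just upstream of a start is shown for 4 of them whose levels behave differently below. Each line gives the 250 bases before the farthest upstream RefSeq start (GRCm38.p6), written 5′ to 3′ on the strand of the gene. The intervals are chr19:41077114-41077363 on the minus strand for Opalin, chr7:30914923-30915172 on the minus strand for Mag, chr9:120149492-120149741 on the plus strand for Mobp and chr17:37023399-37023648 on the minus strand for Mog. Capitals mark a core of the SOX motif, ACAAAG or ACAATG, on either strand (CTTTGT is ACAAAG on the opposite strand).
Opalin: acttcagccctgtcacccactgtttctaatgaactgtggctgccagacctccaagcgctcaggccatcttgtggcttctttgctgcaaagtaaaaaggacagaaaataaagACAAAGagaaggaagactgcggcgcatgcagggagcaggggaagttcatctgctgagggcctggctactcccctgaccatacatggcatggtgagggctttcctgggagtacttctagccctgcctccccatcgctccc
Mag: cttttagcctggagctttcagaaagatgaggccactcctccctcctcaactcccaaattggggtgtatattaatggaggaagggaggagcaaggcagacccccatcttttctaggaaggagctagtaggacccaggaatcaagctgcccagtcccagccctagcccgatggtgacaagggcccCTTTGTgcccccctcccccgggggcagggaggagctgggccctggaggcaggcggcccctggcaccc
Mobp: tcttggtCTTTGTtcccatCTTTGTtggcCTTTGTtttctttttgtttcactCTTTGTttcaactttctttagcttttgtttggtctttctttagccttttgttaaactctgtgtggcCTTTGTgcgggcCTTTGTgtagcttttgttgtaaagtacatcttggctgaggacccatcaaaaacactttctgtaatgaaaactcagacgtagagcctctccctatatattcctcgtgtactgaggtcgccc
Mog: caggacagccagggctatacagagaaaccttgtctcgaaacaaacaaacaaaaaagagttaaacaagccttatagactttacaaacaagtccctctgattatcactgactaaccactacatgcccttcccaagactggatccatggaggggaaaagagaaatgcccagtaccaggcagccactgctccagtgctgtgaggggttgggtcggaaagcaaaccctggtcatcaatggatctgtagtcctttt
Opalin has 1 match, Mag 1, Mobp 6 and Mog none in this window. Of the 8 members with an entry (all but Mbp), 5 held a match, against 25.4% of 27025 promoters of the same length. The other 2 of the 5 are Cnp and Ermn. None of the 8 held TATAAA (13.0% of all promoters) or CAGCTG (12.7%), and 1 of the 8, Cnp, held GGGCGG (33.0%), each searched on both strands, with no overlap between matches of different motifs in these 8. A match is a string of letters and was not tested as a binding site, and no link between matches and levels was tested.

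The labels were checked first on Mapt, the mouse tau gene, and on Thy1, the gene whose promoter drives the transgene. At 3 months both genes were higher in every library labelled transgenic than in every control. At 10 months they were not. Mapt read 42.6, 12.4 and 3.31 FPKM under the transgenic label and 42.7, 8.13 and 9.08 FPKM under the control label. Thy1 read 172, 114 and 159 FPKM under the transgenic label and 115, 314 and 176 FPKM under the control label. The 10-month genotype differences below therefore rest on labels that these genes did not follow. The 3-month transgenic-labelled libraries held Mapt at 43.3–47.6 and Thy1 at 410–441 FPKM, and no 10-month library held both genes at those levels. Total FPKM per library lay at 125933 to 158077, and relative to the 10-month control 1 library the other 11 were 1.07 to 1.37 times as deep by the steps between low values, with no absolute depth known. Markers of neurons and astrocytes, as a cortex label implies, summed to 860–1368 and 324–635 FPKM. The 10-month transgenic 1 library held 11228 FPKM of the pituitary hormone Gh, against 37.4 FPKM or less in each of the other libraries. Choroid plexus markers summed to 733 FPKM in the 3-month control 1 library. They reached 443 FPKM in 10-month transgenic 1 and 306 FPKM in 3-month transgenic 3, and 5.30–63.5 FPKM in the others. The part of such tissue in the myelin values was not tested. Of the 6 genes of peripheral, Schwann cell myelin, 5, among them Prx, were listed at 0 in all libraries.

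The 9 genes together made up between 0.245% and 0.510% of the FPKM of a library. Their summed level was 557, 435 and 395 FPKM in the 3-month controls, 457, 682 and 388 FPKM in the 3-month transgenic-labelled libraries, 517, 377 and 317 FPKM in the 10-month controls and 465, 451 and 602 FPKM in the 10-month transgenic-labelled libraries. All 4 groups overlapped in this sum. Mbp was the highest of the 9 in all 12 libraries and its range did not touch that of the next gene. By their median the order was Mbp (184 FPKM), Mal (79.5), Cnp (54.7), Cldn11 (49.0), Mobp (28.7), Mag (19.6), Mog (11.9), Ermn (10.5) and Opalin (3.00). Below Mbp no neighbours in that order were apart: Cnp exceeded Cldn11 in 7 of 12 libraries, Cldn11 exceeded Mobp in 7, and Mal exceeded Cnp in 10.

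**Figure D1:**
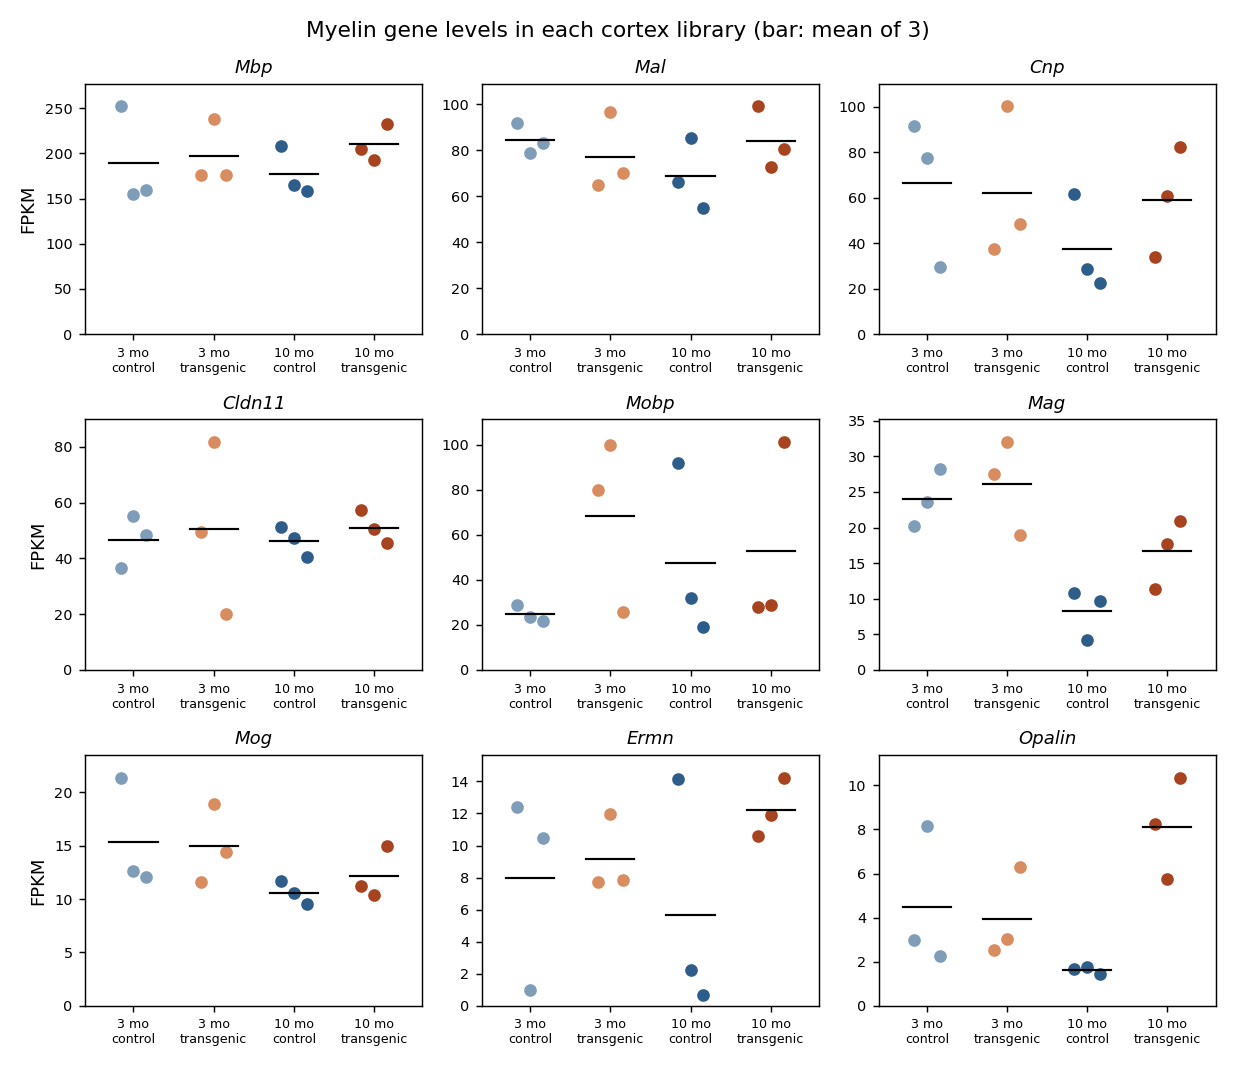
FPKM of each of the 9 genes (linear axes from 0, ordered by median) in the 3 libraries of each group (points) with the group mean (bar). The 10-month controls have the lowest mean for 8 of the 9 genes, all but Mobp, and the share of all genes with this order was not counted. The 10-month control 3 library holds the lowest value of 6 of the 9, while 10-month control 1 has 5 of the 9 above their own log2 mean. For Mag and Opalin the 10-month transgenic-labelled libraries lie wholly above the 10-month controls (4.37% of all genes tested).

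Mbp, myelin basic protein, which binds the cytoplasmic faces of the membrane to each other, was at 252, 155 and 160 FPKM in the 3-month controls and 176, 238 and 176 FPKM in the 3-month transgenic-labelled libraries. At 10 months it was at 208, 165 and 159 FPKM in the controls and 205, 192 and 232 FPKM in those labelled transgenic. It was among the steadier genes of the data: its spread within groups (residual SD 0.27 on the log2 scale) was larger than that of 12.6% of the 9846 genes tested. Every pair of groups overlapped.

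Mal, a proteolipid of compact myelin that sorts membrane into the sheath (chromosome 2, 127633226 to 127656695, minus strand, GRCm38), had a residual SD of 0.26. It was at 91.9, 78.5 and 82.9 FPKM in the 3-month controls, 64.7, 96.8 and 70.1 FPKM in the 3-month transgenic-labelled libraries, 65.9, 85.4 and 54.9 FPKM in the 10-month controls and 99.0, 72.7 and 80.5 FPKM in the 10-month transgenic-labelled libraries. The 4 groups overlapped.

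Mobp, a small basic protein of compact myelin (chromosome 9, 120149707 to 120181484, plus strand), fell on separate levels that did not follow the groups. It was at 28.6, 23.7 and 21.6 FPKM in the 3-month controls and 80.0, 99.8 and 25.6 FPKM in the 3-month transgenic-labelled libraries. The 10-month values were 91.9, 31.8 and 18.9 FPKM in the controls and 27.8, 28.9 and 101 FPKM in those labelled transgenic. Of the 12 libraries, 4 lay at 80.0 FPKM or above and 8 at 31.8 FPKM or below, with no library between, a gap of 1.33 on the log2 scale. Gaps with at least 3 libraries on each side were smaller than this in 80.4% of the genes tested, whose median gap was 0.33. The annotation lists 7 transcripts of Mobp, from 435 to 3286 bases long.

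Of the surface proteins, Mag, the myelin-associated glycoprotein of the layer next to the axon (chromosome 7, 30899176 to 30914873, minus strand), was lowest in the 10-month controls. It was at 20.3, 23.7 and 28.2 FPKM in the 3-month controls and 27.6, 32.0 and 19.0 FPKM in the 3-month transgenic-labelled libraries. At 10 months it was at 10.8, 4.18 and 9.70 FPKM in the controls and 11.4, 17.7 and 20.9 FPKM in those labelled transgenic. The 10-month controls lay below every other library, with the 10-month transgenic 1 library, at 11.4 FPKM, just above the highest of them.

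Mog, the glycoprotein of the outermost myelin surface (chromosome 17, 37010743 to 37023398, minus strand), measured 21.3, 12.6 and 12.1 FPKM in the 3-month controls and 11.6, 18.9 and 14.4 FPKM in the 3-month transgenic-labelled libraries. It was at 11.7, 10.5 and 9.52 FPKM in the 10-month controls and 11.2, 10.4 and 14.98 FPKM in the 10-month transgenic-labelled libraries. The 10-month controls lay below the 3-month controls and overlapped the 10-month transgenic-labelled libraries.

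Cnp, the phosphodiesterase that keeps the cytoplasmic channels of myelin open (chromosome 11, 100574904 to 100591729, plus strand), varied more, with a residual SD of 0.76 beside a median of 0.73 over all genes tested. Its values were 91.6, 77.7 and 29.6 FPKM in the 3-month controls, 37.6, 100 and 48.5 FPKM in the 3-month transgenic-labelled libraries, 61.5, 28.4 and 22.4 FPKM in the 10-month controls and 34.1, 60.9 and 82.2 FPKM in the 10-month transgenic-labelled libraries. Each group held both low and high libraries.

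Ermn, ermin, a cytoskeletal protein of mature myelinating cells (chromosome 2, 58045113 to 58052864, minus strand), measured 12.4, 0.985 and 10.5 FPKM in the 3-month controls and 7.75, 12.0 and 7.83 FPKM in the 3-month transgenic-labelled libraries. It was at 14.2, 2.25 and 0.675 FPKM in the 10-month controls and 10.6, 11.9 and 14.2 FPKM in those labelled transgenic. A group of 3 libraries, all controls, lay at 2.25 FPKM or below and the other 9 at 7.75 FPKM or above. At least 1 control of each age lay among the 9, so the labels did not separate the 2 levels. The annotation lists 1 transcript of this gene.

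Cldn11, the claudin of the tight junctions between myelin layers (chromosome 3, 31149920 to 31164324, plus strand), measured 36.5, 55.1 and 48.5 FPKM in the 3-month controls and 49.4, 81.7 and 20.2 FPKM in the 3-month transgenic-labelled libraries. It was at 51.3, 47.5 and 40.4 FPKM in the 10-month controls and 57.2, 50.4 and 45.6 FPKM in the 10-month transgenic-labelled libraries. Its highest and lowest values of the 12 were both in the 3-month transgenic-labelled libraries.

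Opalin, a glycoprotein of the oligodendrocyte membrane (chromosome 19, 41061710 to 41077113, minus strand), was the lowest of the 9 by median. It was at 2.99, 8.17 and 2.25 FPKM in the 3-month controls and 2.52, 3.02 and 6.32 FPKM in the 3-month transgenic-labelled libraries. At 10 months it was at 1.66, 1.75 and 1.43 FPKM in the controls and 8.24, 5.73 and 10.3 FPKM in those labelled transgenic. The 3 controls of 10 months were the lowest of the 12 libraries.

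At 10 months the 9 genes leaned the same way. All 9 had a higher log2 mean in the transgenic-labelled libraries, against 50.9% of the genes tested, with a median log2 fold change of 0.30 beside 0.0085 over all genes. The 9 genes were measured in the same libraries, and 33 of their 36 pairs had a positive Pearson r of their log2 levels. The signs counted here and below are therefore not 9 independent results. None of the 9 passed the threshold, a Benjamini-Hochberg adjusted limma p under 0.05, which 0.0102% of the 9846 genes passed. Of the 9, 2 genes, Mag and Opalin, were higher at an unadjusted p under 0.05 (2.29% of all genes), and the same 2 had groups that did not overlap with the transgenic-labelled libraries above (4.37% of all genes). Opalin had a log2 difference of 2.23 (SE 0.50, 95% interval 1.12 to 3.33, limma adjusted p = 0.969). Mag had one of 1.07 (SE 0.38, 95% interval 0.23 to 1.92, limma adjusted p = 0.969), and 0.65 without the 10-month control 2 library, which held its lowest value.

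For the other 7 the unadjusted 95% interval of the difference included 0. Mbp, at 210 ± 20.4 against 177 ± 27.1 FPKM (SD, n = 3), had a log2 difference of 0.25 with an interval of -0.24 to 0.74, so differences beyond 0.74 lay outside it. For Mal the log2 fold change was 0.30 (-0.18 to 0.79) and for Mog 0.19 (-0.42 to 0.79). Cldn11 stood at 0.14 (-0.79 to 1.06) and Cnp at 0.71 (-0.56 to 1.97). The widest intervals belonged to Ermn, at 2.05 (-0.36 to 4.46), and Mobp, at 0.18 (-1.39 to 1.76), the genes with a wide gap between libraries. Leaving out 10-month control 3 lowered Ermn to 1.08, and leaving out 10-month control 1 raised it to 3.18. Over the fits that left out 1 library, Cnp ranged from 0.41 (10-month control 3 out) to 1.13 (10-month control 1 out) and Mal from 0.15 (10-month control 3 out) to 0.47 (10-month control 2 out). The sign for Mobp turned without the 10-month transgenic 3 library (-0.43) or without the 10-month control 3 library, and in each of these fits 8 of the 9 stayed above 0. Leaving out any of the other 10 libraries kept all 9 above 0, including the fit without the 10-month transgenic 1 library with its Gh.

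Beside these differences, the sums of other cell types' markers ranged as follows at 10 months. Neuron markers summed to 1021–1278 FPKM in the transgenic-labelled libraries and 1208–1285 FPKM in the controls, and astrocyte markers to 324–635 against 381–566 FPKM. Endothelial markers summed to 33.3–65.8 against 30.9–49.7 FPKM, and choroid plexus markers to 31.7–443 against 15.1–33.2 FPKM. The part of tissue makeup in the myelin differences was not tested. The authors' deposited table for this age gives Opalin a fold of 3.28 with a p-value of 0.00585 and a q-value of 0.751, and Mag a fold of 1.79 with a q-value of 0.854. Mean FPKM in the transgenic-labelled libraries and the controls was 8.10 against 1.61 for Opalin and 16.7 against 8.24 for Mag. The authors' folds are not the ratios of these means. For Mobp the authors' deposited table gives a fold of 0.951, below 1, although its mean FPKM was higher in the transgenic-labelled libraries.

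**Figure D2:**
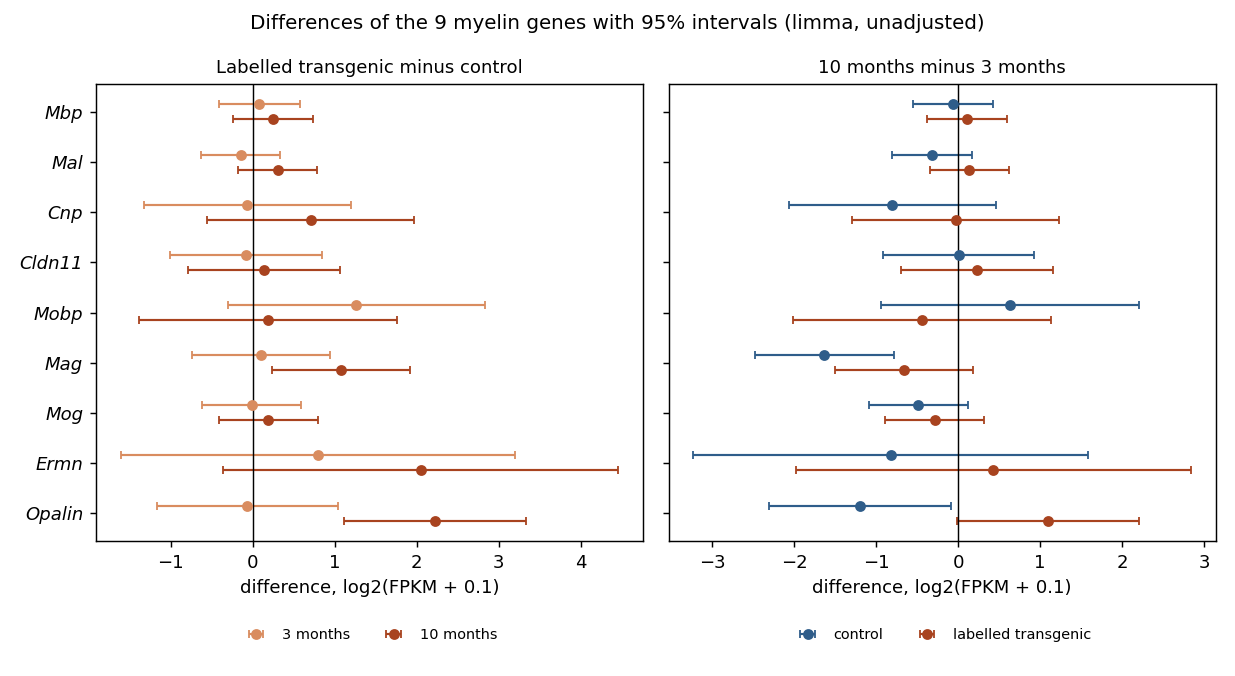
Differences on the log2(FPKM + 0.1) scale with unadjusted 95% intervals from limma, for genotype at each age (left) and age within each genotype label (right). At 10 months all 9 points lie above 0, with only the intervals of Mag and Opalin clear of it. With age in the controls 7 of the 9 points lie below 0, again with only the intervals of Mag and Opalin clear of it.

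At 3 months the 9 genes showed no common direction. Of the 9 genes, 4 had a higher log2 mean in the transgenic-labelled libraries (52.1% of all genes tested), with a median of -0.014 beside 0.017 over all genes. None passed the threshold (0.0406% of all genes did), none had an unadjusted limma p under 0.05 (3.39% of all genes), and none had groups that did not overlap (7.98%). Mobp, at 1.26 (SE 0.71, limma adjusted p = 1), and Ermn, at 0.80 (SE 1.08, limma adjusted p = 1), had the highest log2 fold changes. The lowest was -0.15 for Mal, with an interval of -0.63 to 0.34. For Opalin it was -0.065 (-1.17 to 1.04) and for Mag 0.10 (-0.74 to 0.95). Over the fits that left out a library, between 3 and 7 of the 9 were above 0, with 7 without the 3-month transgenic 1 library.

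Whether the genotype difference changed with age was tested by the interaction in the same fit. None of the 9 passed (0.0508% of all genes did), and 1, Opalin, had an unadjusted limma p under 0.05 (3.32% of all genes). For Opalin the 10-month minus the 3-month difference was 2.29 (SE 0.70, 95% interval 0.72 to 3.86, limma adjusted p = 0.987). Mag had an interaction of 0.97 (SE 0.54, 95% interval -0.22 to 2.17), and 0.55 without the 10-month control 2 library. Of the 9 interactions 8 were above 0 (48.9% of all genes), and 6 without the 3-month control 1 library. The larger differences at 10 than at 3 months for these genes are therefore not shown to differ between the ages. Over both ages together, 6 libraries against 6, all 9 had a higher log2 mean in the transgenic-labelled libraries (51.2% of all genes). None of the 9 passed (0.0508% of all genes), and Opalin alone had an unadjusted limma p under 0.05 (3.75% of all genes), with 1.08 (SE 0.35, limma adjusted p = 0.975). Without the 3-month transgenic 2 library, 6 of the 9 stayed above 0.

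With age, the controls were lower in most of the 9 genes. In the 10-month against the 3-month controls 7 of 9 had a lower log2 mean, against 43.3% of all genes tested, and the median log2 fold change was -0.49 beside 0.062 over all genes. None passed the threshold (0.0305% of all genes did). Mag and Opalin had an unadjusted limma p under 0.05 in the lower direction (1.65% of all genes), and Mag, Opalin and Mog had 10-month controls wholly below the 3-month controls (3.25% of all genes). Mag averaged 8.24 ± 3.56 FPKM in the older and 24.1 ± 4.00 FPKM in the younger controls (SD, n = 3), a log2 difference of -1.63 (SE 0.38, 95% interval -2.48 to -0.79, limma adjusted p = 0.801). Opalin had a log2 difference of -1.20 (SE 0.50, limma adjusted p = 0.994) and Mog of -0.49 (SE 0.27, limma adjusted p = 0.994). Without the 3-month control 2 library, which held the highest Opalin of the younger controls, the Opalin difference was -0.66. Without the 3-month control 1 library, which held the highest Mog of the 12, the Mog difference was -0.22. Without the 10-month control 3 library, which held the lowest value of 6 of the 9 genes, 5 of the 9 remained below 0, and 8 of 9 were below 0 without either of the other 10-month controls. These comparisons use the same 10-month controls as the 10-month genotype comparison, so the low values of Mag and Opalin there enter both. The ages are also in separate deposited tables, so age and table cannot be told apart.

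In the transgenic-labelled libraries 5 of the 9 were higher at 10 months and 4 lower (54.1% of all genes were higher). None passed the threshold (0.0203% of all genes), none had an unadjusted limma p under 0.05 (4.31%), and none had ages that did not overlap (9.43%). Opalin was at a log2 difference of 1.09 (SE 0.50, 95% interval -0.017 to 2.20), the opposite direction to the controls. Mag was at -0.66 (SE 0.38, 95% interval -1.51 to 0.18), the same direction as in the controls. Over both genotype labels, Mag had a mean age difference of -1.15 (SE 0.27, limma adjusted p = 0.693), the only one of the 9 with an unadjusted limma p under 0.05 (4.4% of all genes). None of the 9 passed the threshold there (0.0813% of all genes), and 6 of the 9 were lower (43.8% of all genes). Of the 6 libraries at 10 months, 5 had less Mag than the lowest at 3 months, and the 10-month transgenic 3 library did not. Mbp over both labels differed by 0.020 (SE 0.16), a sign that turned with size factors (-0.036).

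**Figure D3:**
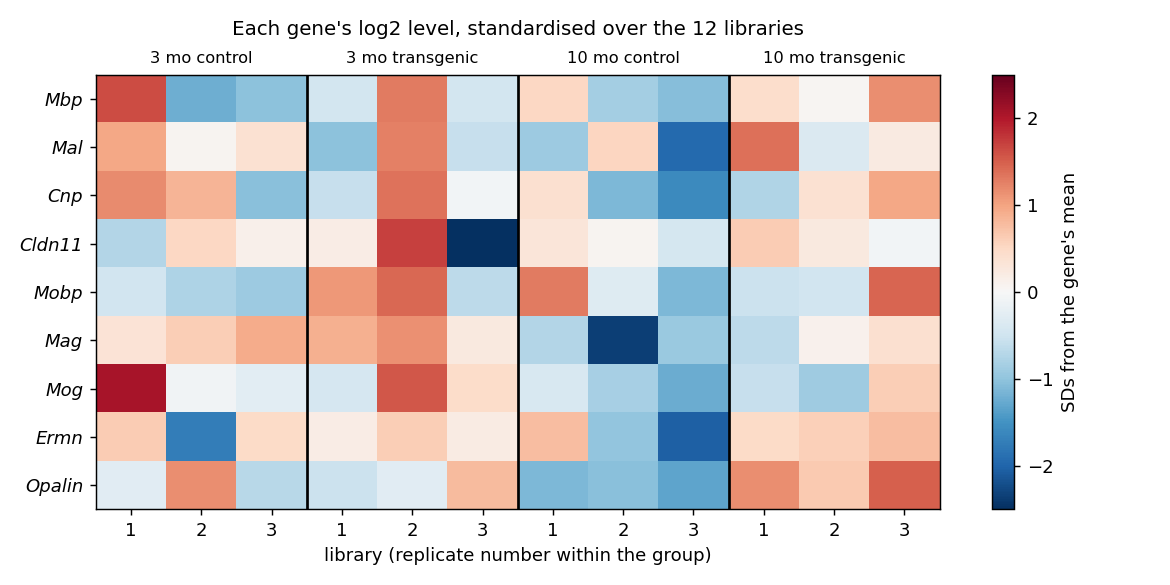
Log2 level of each gene in each library, in SDs from the gene's mean over the 12 libraries (red higher, blue lower). The 3-month transgenic 2 and 10-month transgenic 3 libraries have 8 of the 9 genes above their own mean, and the 10-month control 3 library has none. The share of all genes above their own mean in these libraries was not counted.

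Single libraries were high or low in most of the 9 genes. In the 3-month transgenic 2 library 8 of the 9 were above their own mean and in the 10-month transgenic 3 library 8 of the 9. In the 10-month control 3 library none of the 9 was above its mean. The share of all genes tested above their own mean was not counted for these libraries, and these FPKM were not rescaled. Total FPKM was 133838 in 3-month transgenic 2, 158077 in 10-month transgenic 3 and 129015 in 10-month control 3. The part of library-wide differences in these counts was not tested. The 3-month control 1 library held the highest Mbp and Mog of all 12 libraries. It also held the highest sum of choroid plexus markers, 733 FPKM. The 10-month transgenic 3 library was also the one with the most missing signal elsewhere: 226 of the 4390 genes whose median reached 5 FPKM lay below an eighth of their median there, against 91 to 136 in the other 11 libraries. Its part in these values was not tested.

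Over the 12 libraries, 33 of the 36 pairs among the 9 genes had a positive Pearson r of their log2 levels, with a median of 0.38 (Spearman rho 0.33). Of all pairs of tested genes 50.1% were positive. The libraries share depth and normalization, so this is a description, and the points are 12 libraries in 4 groups. After removal of the group means the median r of the pairs was 0.29. Mog and Cnp were closest (r 0.76, rho 0.80), followed by Mbp with Mog (r 0.73, rho 0.53), Mbp with Ermn (r 0.71, rho 0.88) and Mbp with Cnp (r 0.70, rho 0.69). Within groups Mbp and Mog had an r of 0.93. Opalin and Cldn11 stood apart: Opalin had an r of 0.44 or less with each of the other genes and Cldn11 one of 0.41 or less. The pair Mag and Opalin, both lowest in the 10-month controls, had an r of 0.35 over all libraries and of -0.27 within groups.

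**Figure D4:**
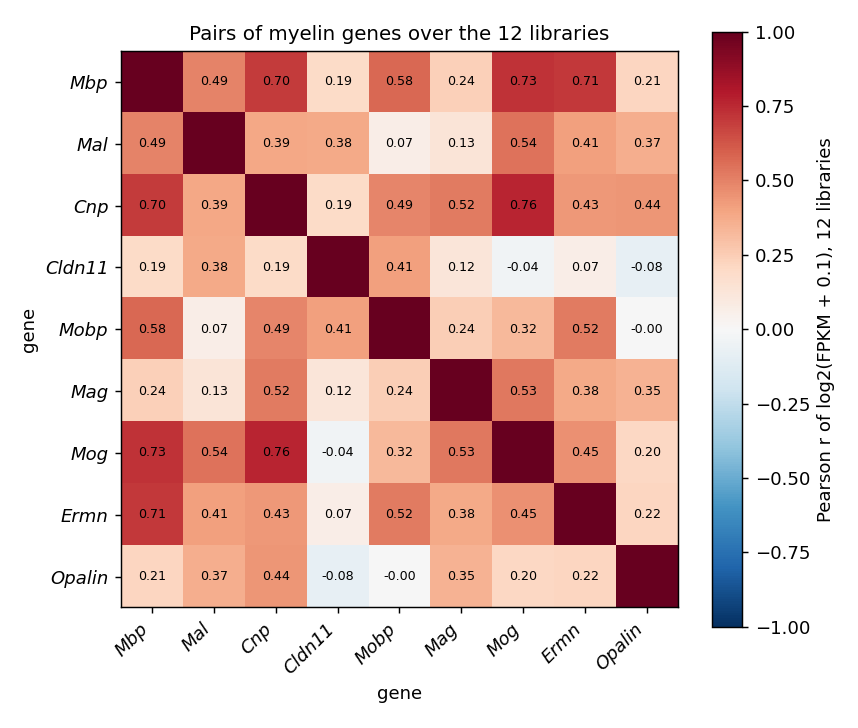
Pearson r of log2(FPKM + 0.1) over the 12 libraries for each pair of the 9 genes, ordered by median level. The highest values are those of Mog with Cnp (0.76) and of Mbp with Mog, Ermn and Cnp (0.70 to 0.73), while Cldn11 and Opalin have the palest rows.

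The 6 genes outside the set whose levels followed the mean standardised level of the 9 most closely are given by their r with that mean. Kcnmb4, a subunit of calcium-activated potassium channels, had an r of 0.89 over the 12 libraries and ranged from 5.94 to 13.9 FPKM. Adssl1, an enzyme of adenine nucleotide synthesis, had an r of 0.83, Snhg3, a host gene of small nucleolar RNAs, 0.83, and Dbndd1 0.82. Aspa, the aspartoacylase of oligodendrocytes that frees acetate for myelin lipid, had an r of 0.82 at only 0.695 to 1.49 FPKM, and Pigt, of the GPI anchor transamidase, 0.81. They were picked as the highest of 9846 genes, so these values have no test. Among the 9 themselves, Cnp (r 0.84) and Mbp (0.83) followed their mean most closely and Cldn11 (0.38) least, although each is part of that mean.

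Genes of the same lineage outside the 9 were counted by list. At 10 months, 16 of the 23 other myelin and mature oligodendrocyte genes tested (of 24) had a higher log2 mean in the transgenic-labelled libraries (50.9% of all genes), with a median log2 fold change of 0.22, and none passed. The nearest of that list by its p was Tmem88b, in the other direction, at 0, 0.210 and 0 FPKM against 6.81, 8.48 and 7.33 FPKM (limma adjusted p = 0.969). In the 3-month libraries Tmem88b ranged from 0 to 12.3 FPKM in the controls and from 0 to 6.88 FPKM in those labelled transgenic. A listed 0 and a level of several FPKM thus occurred within both labels at that age, and the cause was not tested. At 3 months 11 of these 23 were higher and none passed. Apod, a lipid carrier of oligodendrocytes, had a mean age difference over both labels of 0.75 (SE 0.19, limma adjusted p = 0.892), with 32.7–62.9 FPKM at 3 months and 58.0–103 FPKM at 10 months.

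Of the 14 genes of myelin lipid synthesis, 8 had a higher and 6 a lower log2 mean in the 10-month transgenic-labelled libraries, with a median of 0.098, and none passed. At 3 months 9 of the 14 were higher, and Hmgcs1, an enzyme of cholesterol synthesis, had a log2 difference of 1.01 (SE 0.45, limma adjusted p = 1). Of the 10 lineage transcription factors 7 were tested, with 3 higher and 4 lower at 10 months, and none passed. Olig1 was listed at 0 in 9 of the 12 libraries and at 41.9, 32.3 and 45.7 FPKM in the 3-month transgenic 3, 10-month transgenic 2 and 10-month transgenic 3 libraries. The libraries at 0 include 3-month transgenic 1, 3-month transgenic 2 and 10-month transgenic 1. Whether a listed 0 means that the RNA was absent was not tested. Sox8 was at 15.6, 15.8 and 13.2 FPKM in the 3-month transgenic-labelled libraries and at 7.39, 10.8 and 11.6 FPKM in the controls, without overlap (limma adjusted p = 1). Of all genes 7.98% had no overlap in that comparison, in either direction. With age over both labels 1 of these 7 was higher and 6 lower (median -0.34, none passed), and of the lipid genes 9 were higher and 5 lower (median 0.13, none passed).

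Of the 12 precursor and newly formed oligodendrocyte genes on the list 8 were tested, and 4 were higher and 3 lower at 10 months in the transgenic-labelled libraries (median 0.17, none passed). C1ql1, a secreted protein of precursors, was at 1.83, 0.738 and 0 FPKM there against 3.19, 2.63 and 1.73 FPKM (limma adjusted p = 0.969). Over both labels 6 of the 8 were lower at 10 months (43.8% of all genes were), with a median of -0.34. Gpr17, a receptor of newly formed oligodendrocytes, was at 8.68, 0.147 and 10.9 FPKM in the 3-month transgenic-labelled libraries against 10.9, 11.5 and 9.52 FPKM in the controls (limma adjusted p = 1). In the 10-month controls it was at 5.21, 6.38 and 5.61 FPKM, wholly below the 3-month controls (3.25% of all genes). In the 10-month transgenic-labelled libraries it was at 5.22, 2.90 and 3.44 FPKM. Of the 7 node and paranode genes tested, which include axonal partners of the sheath, 2 were higher and 5 lower at 10 months in the transgenic-labelled libraries, with a median of -0.35, and none passed.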

How the data were processed

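RNA of the cortex of 12 mice was sequenced from stranded total RNA libraries with ribosomal RNA removed, per the labels' protocols. The authors deposited FPKM per gene and library in 2 tables, 1 for each age. StringTie 1.3.0, HISAT2 2.0.4, R 3.4.2 and SAMtools, with the builds GRCm38 and mm10, are named in the submitters' processing notes, without order, options or annotation. Per the file headers, the deposited columns beside these are group means, a fold (ratio), log2 of the fold, a p-value and a q-value; their test is not stated. The authors' fold is not the ratio of the deposited group means for Mobp.

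Columns were tied to samples by the sample numbers in the labels, and groups come from the titles. Analysis used log2(FPKM + 0.1), which understates changes of low genes. A gene entered the tests if any of the 4 groups averaged 1 FPKM or more (9846 genes, with all 9 members), with limma 3.58.1 in R 4.3.3 (a mean per group over all 12 libraries, eBayes with trend and robust) and Benjamini-Hochberg adjustment over all genes, with a threshold of 0.05. The code was run on simulated log2 levels drawn from normal distributions, with known changes placed only in genes of below-median spread. Changes in genes of larger spread, or with wide gaps between libraries, were not tested in that run. Positions and transcripts come from the GENCODE annotation of GRCm38, whose IDs matched for all 9, and promoters from RefSeq (GRCm38.p6), matched by symbol for 8 of the 9. With the absolute depth unknown, counting intervals are not given. Between 7.44% and 10.5% of low genes (under 0.2 FPKM) lay within 0.01 (log2) of the step used for relative depth.

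The members, the 15 other gene lists and the tests were chosen with earlier results of these data known. Named outside the members are Mapt, Thy1, Gh, the gene with the smallest p of each lineage list in a comparison, and the 6 genes most like the members' mean; the rule allowed up to 3 per list. Only the first of each list is used, and not each is described; some results the rule names are not reported here. Same-numbered libraries of different groups had deviations from their group means that correlated at -0.12 to 0.094 across genes, so the replicate numbers do not pair them.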

Additional observations from a re-analysis of the deposited data

How the results depend on the processing

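None of the 9 genes passed the threshold in any of the 7 comparisons under the 12 fits that left out a library or the other alternatives, 10 for genotype at each age and 9 for the rest (lowest limma adjusted p 0.320, Opalin at 10 months). Their sign changed in 54 of 756 values from left-out fits and in 6 of 585 from the others. Over all genes, limma called 1 for genotype at 10 months, 4 for genotype at 3 months, 5 for the interaction, 3 for age in controls, 2 for age in transgenics, 5 for genotype over both ages, 8 for age over both labels. With a filter at 5 FPKM these became 0 for genotype at 10 months, 2 for genotype at 3 months, 1 for the interaction, 0 for age in controls, 2 for genotype over both ages, 2 for age over both labels. With no filter beyond 3 libraries above 0 these became 2 for genotype at 10 months, 9 for genotype at 3 months, 9 for the interaction, 7 for age in controls, 7 for age in transgenics, 9 for genotype over both ages. With a pseudocount of 0.01 these became 2 for the interaction, 5 for age over both labels. With low values set to missing these became 1 for the interaction, 1 for age in transgenics, 2 for genotype over both ages. Without trend and robust these became 6 for age in transgenics. With the 6 libraries of that age alone these became 0 for genotype at 10 months, 14 for genotype at 3 months. With the replicate number as a block these became 0 for genotype at 10 months, 1 for the interaction, 1 for genotype over both ages, 2 for age over both labels. The block is given although the replicate numbers did not pair the libraries, and it changed no call of a member. Size factors and quantile normalization each left 1 of the 9 above 0 with age in controls (2 as reported), Cldn11 turning to -0.053 and -0.037. They also turned Mbp over both labels with age to -0.036 and -0.027. A pseudocount of 1 turned Opalin with age over both labels to 0.0036, and Ermn at 3 months was -0.34 with low values missing. The cause was not tested. The following are ranges over the fits that left out 1 library each; a group reduced to 2 libraries shares the spread of the others. Genes past the threshold numbered 0 to 8 for genotype at 10 months, 4 to 12 for genotype at 3 months, 2 to 11 for the interaction, 3 to 10 for age in controls, 2 to 13 for age in transgenics, 1 to 10 for genotype over both ages, 2 to 14 for age over both labels. Members above 0 numbered 3 to 7 for genotype at 3 months, 1 to 4 for age in controls, 1 to 4 for age over both labels. Mbp ranged over -0.063 to 0.31 for genotype at 3 months, -0.060 to 0.31 for the interaction, -0.19 to 0.16 for age in controls, -0.042 to 0.13 for age over both labels. Mobp ranged over -0.43 to 0.82 for genotype at 10 months, -0.22 to 0.35 for age over both labels. Mog ranged over -0.19 to 0.25 for genotype at 3 months, -0.060 to 0.38 for the interaction, -0.0032 to 0.22 for genotype over both ages. Mag ranged over -0.059 to 0.32 for genotype at 3 months. Cnp ranged over -0.57 to 0.24 for genotype at 3 months, -0.33 to 0.38 for age in transgenics. Mal ranged over -0.010 to 0.16 for genotype over both ages. Opalin ranged over -0.45 to 0.47 for genotype at 3 months, -0.24 to 0.22 for age over both labels. Ermn ranged over -0.34 to 1.42 for genotype at 3 months, -1.96 to 0.14 for age in controls, -0.77 to 0.29 for age over both labels. Cldn11 ranged over -0.54 to 0.46 for genotype at 3 months, -0.33 to 0.68 for the interaction, -0.16 to 0.13 for age in controls, -0.32 to 0.68 for age in transgenics, -0.20 to 0.30 for genotype over both ages, -0.16 to 0.34 for age over both labels. Mapt ranged over -1.18 to 0.64 for genotype at 10 months. Thy1 ranged over -0.69 to 0.040 for genotype at 10 months. The depth of the libraries is unknown and 3 libraries a group limit the precision.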
